A study of Homo sapiens with 9 samples.

Results

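The genes described are 6 keratins measured in pancreatic carcinoma cells, KRT7, KRT8, KRT18, KRT19, KRT80 and KRT10, together with vimentin (VIM). They were chosen by name with earlier results of these data known, so their share of calls is a description and not a test. The choice took all probe sets annotated to a list of 8 genes. This gave 14 of 54675 probe sets on the array and 7 of the 8 genes, out of 19775 genes with a probe set of their own. The remaining gene, KRT81, had no probe set annotated to it in the annotation used and is not analysed here. Only KRT7, KRT8, KRT18 and KRT19 are keratins of simple epithelium in the strict sense. KRT10 is the keratin of differentiating epidermis, KRT80 is found in many epithelia, and vimentin is the intermediate filament protein of mesenchymal cells.

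The cells were PANC-1, a long-established line derived from a human carcinoma of the pancreatic duct. One group received the small molecule BRD7552 at a concentration of 5 uM for 72 h, another received it at the same concentration for 6 h, and the controls received DMSO with no exposure time in the labels, with 3 samples in each group. Total RNA was hybridised to Affymetrix expression arrays, 1 array per sample, and the submitters give the dose as the lowest with maximal induction of Pdx1, the pancreatic transcription factor. Time in culture and time of exposure cannot be told apart in this design. Separate cultures are not stated for the replicates, and p-values therefore measure only the spread between these samples, which may be technical.

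Intermediate filaments of epithelial cells are built from keratins as obligate pairs of a type II chain (KRT7, KRT8, KRT80) and a type I chain (KRT18, KRT19, KRT10). KRT8 with KRT18 is the first pair of simple epithelia, and KRT7 and KRT19 mark ducts, including those of the pancreas. Vimentin forms filaments by itself, and carcinoma cell lines often hold keratins and vimentin together.

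Signal was given as linear intensity from 4.54 to 25052 per probe set, and changes are on the log2 scale. The median of all probe sets lay between 16.2 and 18.8 on the 9 arrays. Replicates 2 and 3 at 72 h had upper quartiles of 97.2 and 99.5, against 112 to 119 for the other 7 arrays. The mean Spearman correlation of an array with the others of its group was 0.958 to 0.971 at 72 h, against 0.985 to 0.990 at 6 h and in DMSO. For the ACTB controls, 3′ signal divided by 5′ signal gave 2.07 to 2.21 at 72 h, 1.74 to 2.05 at 6 h and 1.91 to 2.01 in DMSO. The part of these differences in the 72 h results was not tested. Changes at 72 h are therefore also given without replicates 2 and 3 for the genes called. That leaves 1 array at 72 h with no spread of its own, so only the size of the change is given in the text. In bulk RNA, fewer cells with a transcript and less transcript per cell cannot be told apart.

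All 7 genes had a probe set above the median of all probe sets (17.8). The brightest probe sets of VIM, KRT18, KRT8 and KRT19 stood at ranks 23, 38, 270 and 342 of 54613 by mean signal, which places them near the top of the signal range. These ranks describe the probe sets and not the relative amounts of the transcripts. The 3 KRT10 probe sets had means of 1445 to 1642, the KRT80 probe set 139 and the brightest KRT7 probe set 101. The 3 other KRT7 probe sets (6.56 to 14.8) and the other KRT19 probe set (11.5) lay below the median of all probe sets. The KRT8, KRT18, 2 KRT10 probe sets and the dimmer VIM probe set (68.4) carry the suffix x, which Affymetrix gives where probes can also match other transcripts. Keratins 8 and 18 have many processed pseudogenes, so their signal may include more than 1 transcript.

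The 250 bases upstream of the annotated start are shown for the members with an entry in the RefSeq promoter table of GRCh38.p14, KRT8, which fell at 72 h, and KRT10 and VIM, which were not called. Each is written in the direction of transcription, and capitals mark matches to motifs that were searched on both strands. The KRT8 window is chr12:52926470-52926719 (minus strand), the KRT10 window chr17:40822615-40822864 (minus strand) and the VIM window chr10:17227991-17228240 (plus strand). KRT8 has several annotated starts, and which of them PANC-1 uses was not tested.
KRT8: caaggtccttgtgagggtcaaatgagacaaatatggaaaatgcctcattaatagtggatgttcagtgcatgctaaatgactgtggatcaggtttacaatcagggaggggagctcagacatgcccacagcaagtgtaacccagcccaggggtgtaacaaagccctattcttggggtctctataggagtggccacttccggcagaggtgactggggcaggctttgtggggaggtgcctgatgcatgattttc
KRT10: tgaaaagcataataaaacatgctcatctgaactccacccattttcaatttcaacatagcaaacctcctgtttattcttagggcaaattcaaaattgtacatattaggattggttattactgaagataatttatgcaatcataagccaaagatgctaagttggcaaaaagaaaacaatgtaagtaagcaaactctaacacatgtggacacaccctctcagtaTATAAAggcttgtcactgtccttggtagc
VIM: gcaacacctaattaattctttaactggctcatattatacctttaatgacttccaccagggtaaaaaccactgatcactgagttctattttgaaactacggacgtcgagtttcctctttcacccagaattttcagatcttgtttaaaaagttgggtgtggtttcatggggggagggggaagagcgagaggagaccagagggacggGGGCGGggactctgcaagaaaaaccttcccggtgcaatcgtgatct
The KRT10 window holds a TATA box (TATAAA) whose first base is 29 bases before the start, a motif present in 10.7% of 35116 such windows. The VIM window holds a GC box (GGGCGG) whose first base is 46 bases before the start, present in 42.6% of windows. The E-box of SNAI and ZEB repressors (CACCTG, in 17.5% of windows), the AP-1 site (TGANTCA, 6.57%) and the AP-2 site (GCCNNNGGC, 19.8%) had no match in the 3 windows, and the KRT8 window matched none of the 5 motifs. The matches shown do not overlap one another. G and C made up 50.4% of the KRT8 window, 34.8% of the KRT10 window and 46.0% of the VIM window. A match describes letters only.

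After 72 h of BRD7552, 4 of the 7 genes fell, and 0 rose. They were the type II keratins KRT7, KRT8 and KRT80 and the type I keratin KRT18, while KRT19, KRT10 and VIM were not called. Among the 14 probe sets, 4 fell and 10 were not called, where limma called 7.45% of all 54613 probe sets 5.38% as lower and 2.06% as higher (adjusted p below 0.05). Among the brightest probe set of each gene, 8.11% of 19775 were lower. The brightest probe sets of all 7 genes lie above the median probe set, and among probe sets at or above it 10.5% of 27303 were lower. When only the brightest probe set per gene above that filter was tested, 2322 of 12678 were lower and 5 of the 7 genes were called. The groups did not overlap for 5 of the 14 probe sets, against 19.8% of all. The median log2 change of the 14 probe sets was -0.10, and that of all probe sets -0.028. Falls made up 72.3% of all calls at 72 h with the values as deposited, 57.0% after quantile normalization and 55.7% after cyclic loess. Leaving out 72 h replicate 2 gave 65.2%, leaving out replicate 3 gave 65.9%, and leaving out the remaining 72 h array gave 80.6%. Without replicates 2 and 3 together there is no spread at 72 h, so no share is given for that fit. What part of the larger share of falls over all probe sets comes from those arrays was not tested.

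KRT8, the type II chain of the first simple epithelial pair, had signals of 5876, 6354 and 6367 on the 72 h arrays, 9118, 8984 and 8539 on the 6 h arrays and 8563, 8459 and 8797 on the DMSO arrays. Every 72 h array lay below every other array, and the 6 h and DMSO arrays overlapped. The mean at 72 h was 6199 ± 279.8 and in DMSO 8606 ± 173 (SD, n = 3 each). KRT8 fell to 0.720 of its DMSO level at 72 h (log2 -0.47 ± 0.035, SE, limma adjusted p = 4.2e-06), with a 95% interval of -0.55 to -0.40. At 6 h its log2 change was 0.045 ± 0.035 (adjusted p = 1). Without 72 h replicates 2 and 3 the 72 h value was -0.55, from 1 array.

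KRT18, the type I partner of KRT8, had signals of 14490, 13875 and 13213 at 72 h, 16564, 16507 and 16938 at 6 h and 17229, 16552 and 17164 in DMSO. The 72 h arrays again lay below all others. KRT18 fell by 18.4% at 72 h (log2 -0.29 ± 0.030, SE, limma adjusted p = 5.5e-05), to a mean of 13859 ± 639 at 72 h, against 16982 ± 373 in DMSO (SD, n = 3 each). Its log2 change at 6 h was -0.027 ± 0.030. On 72 h replicate 1 alone the 72 h change was -0.23. At this height of the signal range changes were small. The 50 brightest probe sets, a number chosen after the data were seen, had a median absolute log2 change of 0.023 at 72 h, and the largest fall among them was that of KRT18. Over the brightest 1% of probe sets (546), which include KRT8, KRT18, KRT19 and VIM, the median absolute change was 0.057, and 13.4% were called lower.

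KRT7, a duct keratin of type II, had the largest fitted change of the 7 genes over all arrays by their brightest probe sets, but not on 72 h replicate 1 alone (KRT8 -0.55, KRT7 -0.53) nor with the probe sets of a gene averaged. Its brightest probe set stood at 85.0, 43.7 and 54.5 at 72 h, 107, 122 and 126 at 6 h and 125, 121 and 124 in DMSO. The 72 h arrays were below all others and spread widely, and replicates 2 and 3, the arrays with the lower upper quartile, were also those with the lower KRT7 signal. It fell by 52.3% at 72 h (log2 -1.07 ± 0.18, SE, limma adjusted p = 0.0030), with a 95% interval of -1.47 to -0.67. The SE and interval take 1 spread from all 3 groups, while the SD of the log2 signal was 0.49 at 72 h, 0.12 at 6 h and 0.024 in DMSO. On 72 h replicate 1 alone the log2 change was -0.53, and without replicate 1 it was -1.34. The 3 dim KRT7 probe sets had log2 changes of -0.19, 0.062 and -0.068 at 72 h, none called, and averaging all 4 probe sets gave -0.32 (adjusted p = 0.086). At 6 h the brightest stood at -0.064 ± 0.18.

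KRT80, a type II keratin of broad epithelial distribution, had signals of 120, 110.4 and 97.6 at 72 h, 142, 143 and 166 at 6 h and 154, 156 and 163 in DMSO. The 72 h arrays did not overlap with the others. It fell by 30.9% at 72 h (log2 -0.53 ± 0.10, SE, limma adjusted p = 0.0056), and the 6 h value was -0.071 ± 0.10. On 72 h replicate 1 alone the log2 change was -0.39, smaller than over all arrays.

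**Figure D1:**
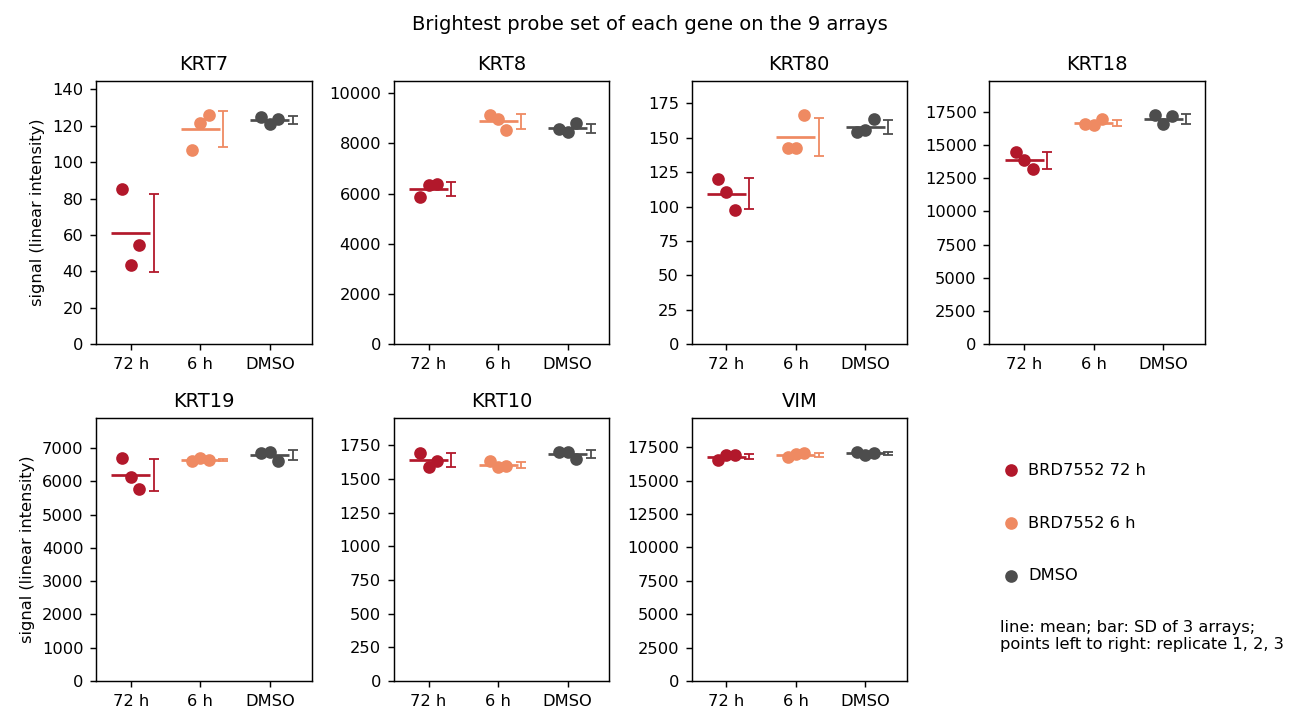
Signal (linear intensity, axes from 0) of the brightest probe set of 7 genes on the 72 h, 6 h and DMSO arrays, with 3 arrays per group as points, their mean as a line and the SD as a bar. The 72 h points of KRT7, KRT8, KRT80 and KRT18 lie below all 6 h and DMSO points, and those of KRT19, KRT10 and VIM overlap at least 1 other group.

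KRT19, the smallest type I keratin and a duct marker, was lower on some 72 h arrays only. Its signals were 6710, 6126 and 5768 at 72 h, 6626, 6692 and 6640 at 6 h and 6859, 6883 and 6626 in DMSO. Replicate 1 at 72 h lay within the DMSO range, while 72 h replicates 2 and 3 lay below every 6 h and DMSO array. The log2 change at 72 h was -0.13 ± 0.043 (SE) with a 95% interval of -0.23 to -0.040, and it was not called (limma adjusted p = 0.089). It was called with 1 brightest probe set per gene above the filter on low values (adjusted p = 0.036), and without 72 h replicate 1, where it was -0.19 (adjusted p = 0.0034). On 72 h replicate 1 alone it was -0.017. The dim KRT19 probe set had a log2 change of 0.029.

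KRT10 was not called by any of its 3 probe sets. The brightest had signals of 1694, 1588 and 1632 at 72 h, 1629, 1588 and 1598 at 6 h and 1699, 1698 and 1647 in DMSO, and the 72 h and DMSO arrays overlapped. Its log2 change at 72 h was -0.038 ± 0.040 (SE) with a 95% interval of -0.13 to 0.049. The 2 other probe sets stood at 0.10 ± 0.063 and 0.13 ± 0.058 (limma adjusted p = 0.46 and 0.24), so that the probe sets of KRT10 differed in sign. KRT10-AS1, a transcript annotated as antisense to KRT10, had a log2 change of 0.022 ± 0.051 at 72 h.

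Vimentin was not called either. Its bright probe set had signals of 16575, 16886 and 16939 at 72 h, 16751, 16988 and 17067 at 6 h and 17139, 16939 and 17059 in DMSO, and the 3 groups overlapped. The log2 change at 72 h was -0.021 ± 0.018 (SE) with a 95% interval of -0.060 to 0.018, in the same range of signal in which KRT18 was called. The dim VIM probe set had signals of 62.5, 56.6 and 55.5 at 72 h, 80.8, 76.8 and 77.3 at 6 h and 72.1, 79.4 and 54.8 in DMSO. It was at -0.23 ± 0.13 at 72 h against DMSO and at -0.43 ± 0.13 at 72 h against 6 h, not called in either (limma adjusted p = 0.42 and 0.083), and the 72 h and 6 h arrays did not overlap for it. Centring each array on its median turned the 72 h change of the bright probe set to 0.016.

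**Figure D2:**
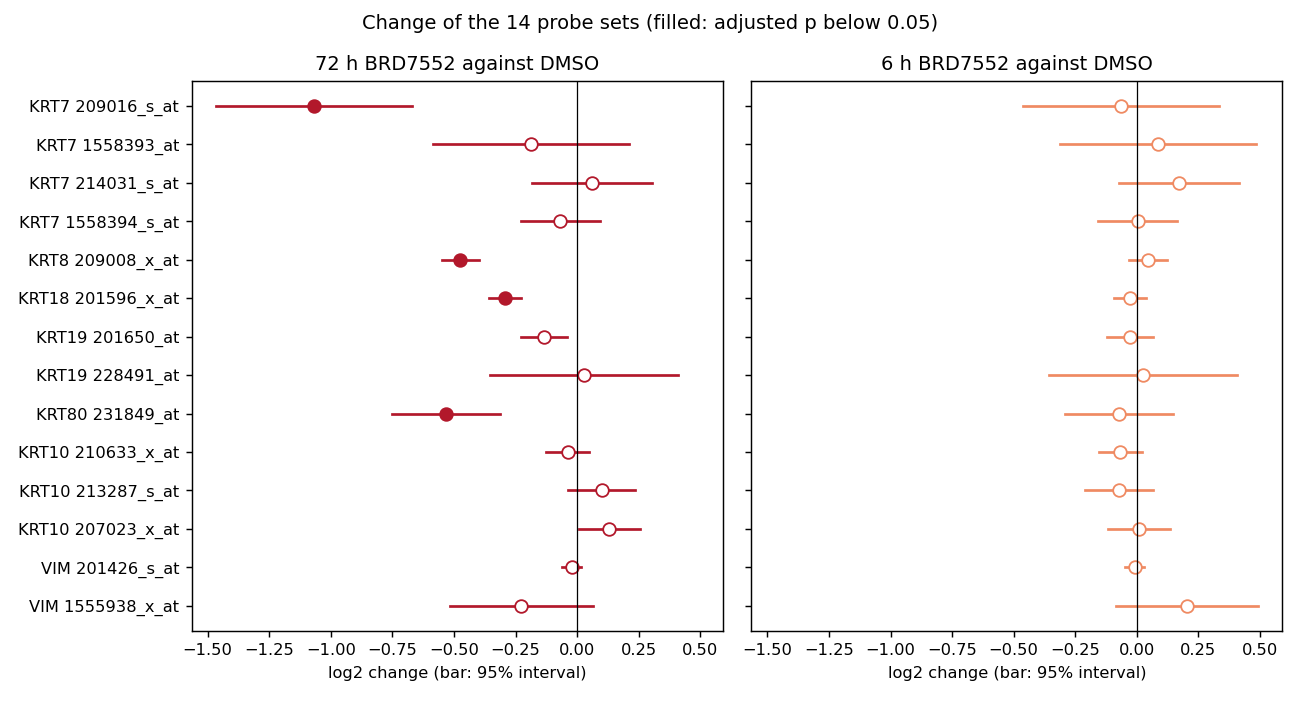
Log2 change of the 14 probe sets at 72 h (left) and 6 h (right) against DMSO, with bars for the 95% interval of the limma estimate and filled points for adjusted p below 0.05. At 72 h the brightest KRT7, KRT8, KRT18 and KRT80 probe sets are filled, and at 6 h the interval of every probe set includes 0.

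After 6 h, 0 of the 14 probe sets were called by limma and 0 had an unadjusted p under 0.05, where 0.0732% of all 54613 probe sets were called, 0.0677% as higher and 0.00549% as lower. The log2 changes of the 7 brightest probe sets lay between -0.071 (KRT80) and 0.045 (KRT8). The 95% interval ran from -0.048 to 0.029 for VIM, from -0.091 to 0.038 for KRT18, from -0.031 to 0.12 for KRT8 and from -0.12 to 0.064 for KRT19. For the dimmer KRT7 the interval was wider, from -0.46 to 0.34. The groups did not overlap for 1 of the 14 probe sets, the brightest of KRT10, where this held for 8.35% of all.

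Between the times, the same 4 genes were lower at 72 h than at 6 h. KRT8 had a log2 change of -0.52 ± 0.035 (SE, limma adjusted p = 3.0e-06), KRT18 of -0.27 ± 0.030 (0.00016), KRT7 of -1.004 ± 0.18 (0.0055) and KRT80 of -0.46 ± 0.10 (0.015). Over all probe sets 6.46% were called in this comparison, 4.85% as lower and 1.61% as higher. Among the brightest probe sets of genes 7.1% were lower, and among probe sets at or above the median 9.48%. The groups did not overlap for 6 of the 14 probe sets, against 17.9% of all. With each array centred on its median, KRT18 (-0.24, limma adjusted p = 0.058) and KRT80 (-0.43, 0.076) were no longer called. On 72 h replicate 1 alone KRT7 stood at -0.47 and KRT80 at -0.32, both smaller than over all arrays. KRT80 also missed the threshold without 6 h replicate 3 (-0.39, adjusted p = 0.088) and without 72 h replicate 3 (-0.38, 0.053). This comparison shares its 72 h arrays with the comparison against DMSO.

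Ratios of signal within an array do not depend on scaling of the array by a factor. They can depend on the height of the signal, since VIM and KRT18 lie among the 50 brightest probe sets, where changes were smaller (median absolute log2 change 0.023) than in the brightest 1% (0.057). Whether signal is compressed there was not tested, and the ratios are those of signal, not of transcript amounts. The log2 ratio of KRT8 to VIM averaged -1.44 ± 0.049 at 72 h, -0.93 ± 0.062 at 6 h and -0.99 ± 0.027 in DMSO (SD, n = 3 each). That of KRT18 to VIM averaged -0.28 ± 0.082 at 72 h, -0.023 ± 0.016 at 6 h and -0.0056 ± 0.024 in DMSO. Neither ratio overlapped between the 72 h arrays and the others. The log2 ratio of KRT8 to its partner KRT18 was -1.30, -1.13 and -1.05 on the 72 h arrays, -0.86, -0.88 and -0.99 on the 6 h arrays and -1.01, -0.97 and -0.96 on the DMSO arrays, and its mean was -0.18 at 72 h relative to DMSO, with every 72 h array below every other array. The ratio of KRT19 to VIM was -1.30, -1.46 and -1.55 at 72 h, and 72 h replicate 1 lay within the DMSO range of -1.36 to -1.30. No p is given for these ratios.

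**Figure D3:**
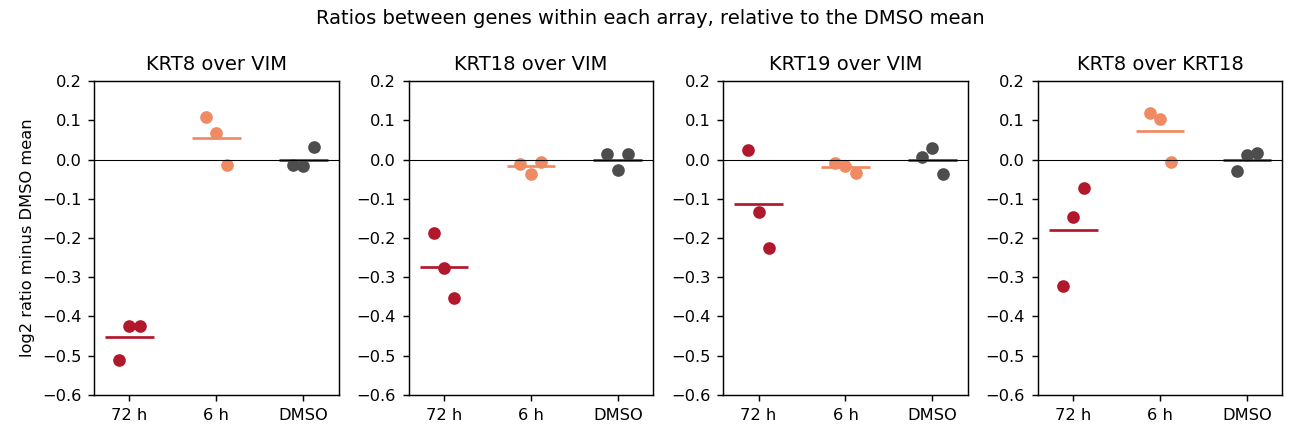
Log2 ratio of KRT8, KRT18 and KRT19 to VIM, and of KRT8 to KRT18, on each array minus the DMSO mean of that ratio, with points for 3 arrays per group and lines for group means. KRT8 over VIM lies near -0.45 and KRT18 over VIM near -0.27 at 72 h, and KRT19 over VIM overlaps DMSO at 72 h replicate 1.

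The other keratin genes were dim in these cells and did not pass the test. The 38 other keratin genes with a probe set included those of stratified epithelium, such as KRT5 and KRT15, and of hair and nail, such as KRT32 and KRT83. Only 8 of the 38 had a mean at or above the median probe set, and KRT15 was the brightest at 107. Limma called 0 of the 38 at either time. By their brightest probe sets, 11.8% of all 19775 genes were called at 72 h and 0.142% at 6 h. Among probe sets at or above the median, where 8 of the 38 lie, 14.5% were called at 72 h. What part of the absence of calls comes from dim signal was not tested. Of the 38 genes, 1 had an unadjusted p under 0.05 at 72 h and 0 at 6 h. Their log2 changes at 72 h ran from -0.40 to 0.36 with a median of 0.023. The brighter probe set of the pseudogene KRT8P12, a copy of KRT8, had signals averaging 60.2 at 72 h, 77.2 at 6 h and 77.4 in DMSO, and a log2 change of -0.38 ± 0.14 (SE, limma adjusted p = 0.14) at 72 h.

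**Figure D4:**
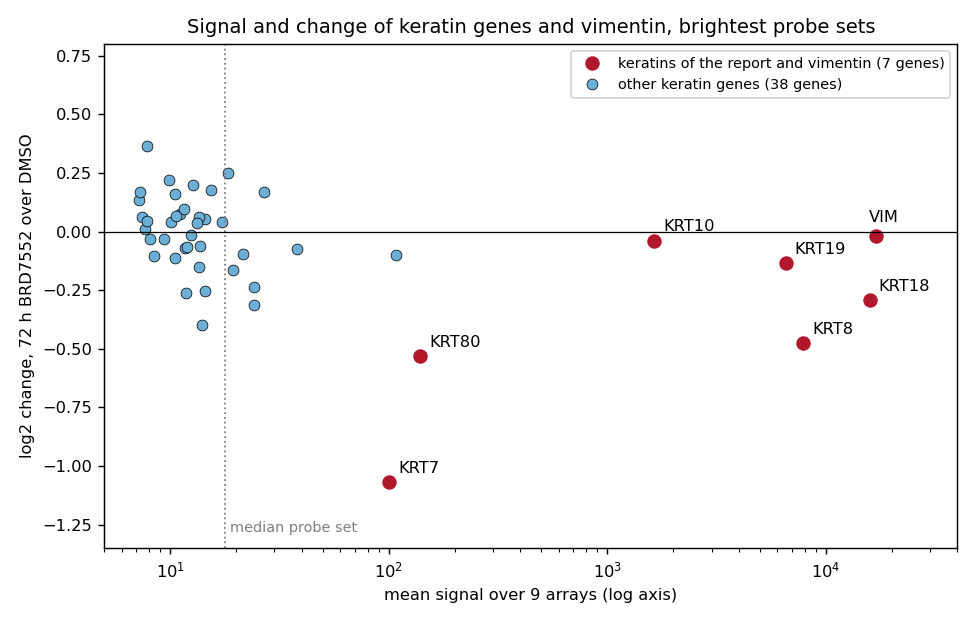
Mean signal over 9 arrays (log axis) against the log2 change at 72 h over DMSO, for the brightest probe sets of 7 genes described here and of 38 other keratin genes. The other keratin genes lie between -0.40 and 0.36 and mostly below the median probe set (dotted line), while KRT7 lies at -1.07 and KRT80 at -0.53.

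Of the 15 other intermediate filament genes, limma called 0 at 72 h, where 11.8% of all genes were called by their brightest probe sets. An unadjusted p under 0.05 was found for 5 of the 15. NES (nestin), SYNM (synemin) and the lamins LMNA, LMNB1 and LMNB2 were well above the median probe set, and their log2 changes at 72 h were -0.17, 0.17, 0.11, -0.047 and 0.040. The largest difference of the list was that of GFAP, the astrocyte filament gene, at -0.9996 with a limma adjusted p of 0.34 and a mean signal of 9.86 at 72 h, 26.6 at 6 h and 23.1 in DMSO. The median of the list was -0.047.

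Keratin filaments attach to desmosomes through plakins. Of 20 desmosome and plakin genes 2 rose, 1 fell and 17 were not called at 72 h, with a median log2 change of 0.036. Over the brightest probe sets of all 19775 genes limma called 11.8% at 72 h, 3.67% as higher, and the 13 lists together had 12 of 150 genes called, so that the counts of the lists lie near the background. PPL, periplakin, rose (log2 0.67 ± 0.098, SE, limma adjusted p = 0.00087), with signals of 276, 235 and 259 at 72 h, 215, 203 and 203 at 6 h and 144, 183 and 158 in DMSO. JUP, plakoglobin, which links desmosomal cadherins to plakins, rose (log2 0.58 ± 0.077, adjusted p = 0.00042), with 429, 456 and 442 at 72 h, 345, 339 and 289 at 6 h and 288, 294 and 304 in DMSO. DSG2, the desmoglein of simple epithelia, fell (log2 -0.63 ± 0.10, adjusted p = 0.0022), with 154, 130 and 118 at 72 h, 194, 204 and 213 at 6 h and 203, 224 and 194 in DMSO. Its dimmer probe set also stood at -0.63 and was not called. On 72 h replicate 1 alone DSG2 stood at -0.42, PPL at 0.78 and JUP at 0.54. Between the times PERP, a desmosomal membrane protein gene, was also higher at 72 h (log2 0.14, limma adjusted p = 0.030), as was JUP, and DSG2 was lower. On 72 h replicate 1 alone these changes between the times were 0.13 for PERP, 0.41 for JUP and -0.40 for DSG2. The second PERP probe set was higher at 72 h than in DMSO too (log2 0.36, limma adjusted p = 0.00042). Another PERP probe set with a mean of 80.9 stood the other way, at -0.53 against DMSO and -0.56 between the times, not called in either.

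Of 13 measured transcription factors of epithelium, of 16 listed, 1 rose, 1 fell and 11 were not called at 72 h. TFAP2C, an AP-2 factor of ectoderm and breast epithelium, fell (log2 -1.20 ± 0.13, SE, limma adjusted p = 7.4e-05), with signals of 59.4, 68.1 and 49.0 at 72 h, 104, 101 and 123 at 6 h and 129.9, 132 and 141 in DMSO. TFAP2A, its relative, rose (log2 0.22 ± 0.048, adjusted p = 0.013), with 1070, 1034 and 1114 at 72 h, 930, 914 and 945 at 6 h and 918, 945 and 905 in DMSO. On 72 h replicate 1 alone TFAP2C stood at -1.17 and TFAP2A at 0.21. The other probe sets of both genes were not called over all arrays. Of the 9 mesenchymal transcription factors 1 fell and 8 were not called at 72 h. SNAI2, a repressor of epithelial genes, was the gene that fell (log2 -1.01 ± 0.14, limma adjusted p = 0.00058). Its mean signal of 18.1 was close to that of the median probe set. ZEB1, another such repressor, was not called against DMSO by its brightest probe set (log2 -0.095, limma adjusted p = 0.44). That probe set was lower at 72 h than at 6 h (log2 -0.22, adjusted p = 0.037). Another ZEB1 probe set was lower against DMSO (log2 -0.63, adjusted p = 0.012), while a further probe set stood at -0.0068. On 72 h replicate 1 alone the brightest ZEB1 probe set stood at -0.18 against 6 h. The ZEB1 probe set called lower against DMSO stood at -0.49 there, and SNAI2 at -0.86.

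Of 10 measured markers of the epithelial surface CLDN7 and MUC1 rose, CLDN4 fell and 7 were not called at 72 h, where 11.8% of all genes were called. The claudin gene CLDN4 had signals of 116, 115 and 109 at 72 h, 196, 179 and 200.1 at 6 h and 187, 180.5 and 183 in DMSO (log2 -0.70 ± 0.081, SE, limma adjusted p = 0.00016 at 72 h), and its dimmer probe set stood at 0.10 and was not called. The claudin gene CLDN7 rose by 0.52 log2 units (adjusted p = 0.0057) and the mucin gene MUC1 by 0.36 (0.0052). With 72 h replicate 1 alone CLDN4 stood at -0.66, CLDN7 at 0.71 and MUC1 at 0.35. EPCAM, an adhesion molecule of epithelia, averaged 409 at 72 h, 478 at 6 h and 496 in DMSO and was not called (log2 -0.28, adjusted p = 0.12). Of the 8 measured ductal markers, MUC1 rose and CA2, carbonic anhydrase of duct cells, fell (limma adjusted p = 0.0014), with 59.0, 45.2 and 37.2 at 72 h, 84.5, 94.6 and 101 at 6 h and 89.6, 103 and 85.9 in DMSO. Its log2 change was -0.65 on 72 h replicate 1 alone, smaller than over all arrays (-1.0004). SOX9, the duct factor, averaged 1718 at 72 h, 1867 at 6 h and 1793 in DMSO.

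Of 12 mesenchymal markers 2 fell and 10 were not called at 72 h, where 8.11% of all genes were lower. S100A4, a calcium-binding protein of motile cells, had signals of 4359, 3915 and 3872 at 72 h, 6104, 6068 and 6117 at 6 h and 5941, 6061 and 5981 in DMSO (log2 -0.57 ± 0.039, SE, limma adjusted p = 2.2e-06). LOX, which crosslinks collagen, fell by 0.84 on the log2 scale (adjusted p = 0.0073) at a mean signal of 19.9, and its 2 other probe sets were not called. On 72 h replicate 1 alone S100A4 stood at -0.46 and LOX at -0.64. The summed signal of the 12 genes was 6881 to 7730 at 72 h, 9256 to 9370 at 6 h and 9250 to 9411 in DMSO, and most of that difference is S100A4 itself, which averaged 4049 at 72 h, 6096 at 6 h and 5994 in DMSO. At 6 h limma called 0 of the 150 genes on the 13 lists, with 7 at an unadjusted p under 0.05.

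Most markers of other cell types lay near the median probe set or below. The summed signal of 6 leukocyte markers was 60.5 to 78.3 at 72 h, 70.7 to 82.6 at 6 h and 82.2 to 86.5 in DMSO, that of 6 endothelial markers 67.9 to 88.3, 66.9 to 71.9 and 66.7 to 76.5 in the same order, and that of 4 acinar markers 39.9 to 51.1, 47.3 to 52.0 and 48.4 to 54.8. For 6 endocrine markers it was 60.7 to 83.8 at 72 h, 82.9 to 94.4 at 6 h and 78.8 to 87.9 in DMSO. PTPRC, PECAM1, CPA1 and INS, which define these types, had mean signals of at most 22.7 in any group. Of 8 stromal fibroblast markers, with a sum of 626 to 732 at 72 h, 695 to 806 at 6 h and 745 to 820.4 in DMSO, COL1A1 (mean 569) and THY1 (69.4) were the brightest. Limma called 0 of these 30 genes at 72 h, with 3 at an unadjusted p under 0.05.

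The genes whose log2 signal over the 9 arrays was most like that of each keratin were found among 12677 others above the median probe set. For KRT8 these were TMEM43 (Pearson r = 0.995), DGKZ (0.994) and SCARB1 (0.993). For KRT18 they were MRPS30 (0.994), RPS6KC1 (0.993) and PCTP (0.991), for KRT7 ZNF343 (0.995), ETHE1 (0.994) and NFXL1 (0.992), and for KRT80 PDGFC (0.988), FRMD3 (0.986) and ASNSD1 (0.986). KRT19 was most like GSTO1 (0.987). The highest values for KRT10 and VIM were lower, at 0.913 (GOLGA2P5) and 0.897 (FYB2). The 9 arrays form 3 groups, and a gene that was lower at 72 h than in both other groups shares this pattern.

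**Figure D5:**
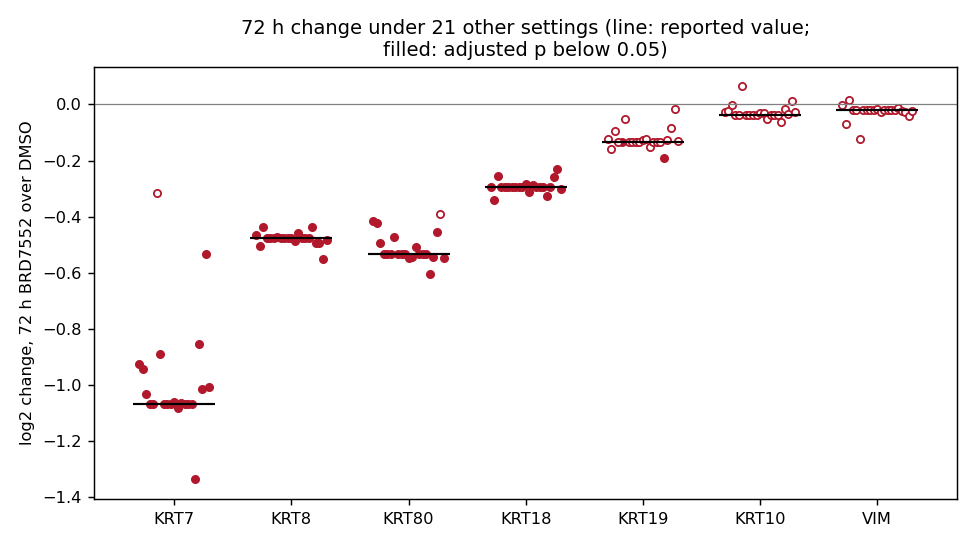
Log2 change of 7 genes at 72 h over DMSO under 21 other settings (points, filled where adjusted p is below 0.05) beside the reported value (line). KRT8 and KRT18 are filled throughout, KRT7 and KRT80 each have 1 open point, and KRT10 and VIM have none filled. In 1 setting only 1 array is left at 72 h, and filling there rests on the spread of the other groups.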

How the data were processed

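Gene expression was measured on 9 Affymetrix arrays, 3 per group. The values the authors deposited are linear intensity, 1 per probe set and array. MAS5 is named in the submitters' processing notes; a version, the scaling and any later step are not stated there. For 59.2% of probe sets at least 2 arrays held exactly the same value. Values were log2 transformed without further normalization or offset. Probe sets were named through the platform annotation, updated by gene identifier: 1 symbol was given for 41097 probe sets, more than 1 for 1801 and none for 11777, with 41043 found in the current gene table.

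All 54613 non-control probe sets (62 controls left out) entered 1 limma fit over the 9 arrays (lmFit, eBayes with trend, limma 3.58.1, R 4.3.3, 6 residual degrees of freedom). No filter was set, so that every probe set of a gene was tested on equal terms. Calls were made at a Benjamini-Hochberg adjusted p below 0.05, and a gene was described by its brightest probe set. Exact permutation of 3 against 3 arrays cannot go below 0.1, a value reached by each called probe set of the members. Precision is limited by the number of arrays. The fit was tested on simulated data. The members and gene lists were chosen with earlier results of these data known, and up to 4 called genes per list and comparison, and the most alike genes (3 per member), were named. Other genes named, such as GFAP, NES, SYNM, the lamins, EPCAM, SOX9, KRT15 and KRT8P12, were chosen after their values were seen. Alternatives were another scaling (quantile, cyclic loess, median centring), a filter, 1 or averaged probe sets per gene, an offset of 16, no trend, fewer arrays, a replicate block, and, added after the data were seen, array weights and leaving out 72 h replicates 2 and 3. Motifs and promoter windows were chosen after the values were seen. KRT81 is not analysed here.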

Additional observations from a re-analysis of the deposited data

Results flagged for a closer look

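The effects of 72 h and 6 h of BRD7552, each against the same DMSO arrays, differed for 4 genes when the difference itself was tested with limma. For KRT7 the difference between the times was -1.004 (72 h -1.07, 6 h -0.064, adjusted p = 0.0055), and for KRT8 it was -0.52 (72 h -0.47, 6 h 0.045, adjusted p = 3.0e-06). For KRT18 it was -0.27 (72 h -0.29, 6 h -0.027, adjusted p = 0.00016), and for KRT80 it was -0.46 (72 h -0.53, 6 h -0.071, adjusted p = 0.015). All 3 arrays at 72 h lay below all 3 at 6 h for each of the 4, which were called in this same comparison, and for 12.3% of all probe sets. The DMSO arrays cancel in this difference, so these are the values of the 72 h against 6 h comparison given above.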

How the results depend on the processing

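Over 21 alternatives, the 72 h change against DMSO ran from -0.55 to -0.44 for KRT8 and from -0.34 to -0.23 for KRT18. Both kept their calls, leaving aside the fit with 1 array at 72 h, whose calls are not read. Without a trend the limma adjusted p was 0.0061 for KRT8 and 0.043 for KRT18, and with median centring it was 0.0013 and 0.034. KRT7 (-1.34 to -0.32) lost its call with averaged probe sets. KRT80 (-0.60 to -0.39) kept its call in the alternatives with more than 1 array at 72 h. Its smallest change, -0.39, was in the fit that leaves 1 array there. KRT19 gained a call in 2 alternatives and, between the times, in 1 (-0.16 without 72 h replicate 1). The member count was 3 to 5 at 72 h and 0 at 6 h throughout. Between the times it was 2 with median centring and 3 to 5 with 1 array left out. KRT18 also missed the threshold there without a trend (-0.27), KRT80 with only 6 arrays (-0.46) and KRT7 with averaged probe sets (-0.36), where VIM was called (-0.22). Signs turned where changes were near 0. VIM stood at 0.0044 (6 h, cyclic loess), 0.097 (6 h, averaged probe sets), 0.016 and 0.017 (median centring, 72 h against DMSO and against 6 h). KRT7 at 6 h stood at 0.049 with averaged probe sets and from -0.11 to 0.0070 with 1 array left out, the highest without 6 h replicate 1. KRT10 at 72 h stood at 0.064 with averaged probe sets and 0.011 without 72 h replicates 2 and 3, where KRT19 between the times stood at 0.012. Of the other keratin genes, KRT25 alone was called in 1 alternative (0.61, 72 h against 6 h without 72 h replicate 1), so that this count ran from 0 to 1.

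Over all probe sets 40, 4067 and 3528 were called at 6 h, at 72 h and between the times. With median centring these counts were 13, 2100 and 1639, with averaged probe sets (19775 genes) 19, 2004 and 1653, and without a trend 6, 2303 and 1764. Between the times 1757 were called with only 6 arrays. Without 72 h replicates 2 and 3 the counts were 2340 at 72 h and 1590 between the times, and with array weights 104 at 6 h. With 1 array left out they ran from 19 to 47, 2124 to 6672 and 1816 to 6270. The cause was not tested. The replicate block gave 4 member probe sets at 72 h and 4 between the times, and changed no call of a member. Deviations of same-numbered arrays correlated from -0.26 to 0.20, so the numbers were not taken as pairs.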
